A study of Rattus norvegicus with 8 samples.

Results

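The translation factor genes are the genes whose symbols in the 8 deposited count tables begin with Eif1 to Eif6, Eef1 or Eef2, with the Eif2ak kinases and Eef2k left out. The rule gave 58 genes of the 12282 listed in any library, and all 58 were listed in each of the 8 libraries. They were measured by single-cell RNA sequencing in cells of the fracture callus, the repair tissue of a broken femur, from Sprague Dawley rats. There was 1 library for each of 4 treatments at each of 2 times, weeks 12 and 4 after fracture. The magnesium rats received zoledronate and Mg, the CGRP rats received zoledronate and calcitonin gene-related peptide, a neuropeptide, the zoledronate rats received this bone resorption inhibitor without either, and the control rats are labelled untreated. Zoledronate was given under the skin at 0.3 mg/kg per week for 12 weeks before a closed fracture. The labels name a steel nail and a magnesium-containing nail without saying which rats had which, and they leave out the dose and route of CGRP, the sex and age of the rats and the number of rats per library. Cells were released by 4 h of collagenase A and kept in a dish for 24 h before sequencing, so cells that survived this step were measured. With 1 library per treatment and week, differences between libraries carry no test, and no difference below can be assigned to a treatment rather than to the animals, the dish or the library.

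Protein synthesis starts when eIF2 brings the initiator tRNA to the small ribosomal subunit, eIF3 holds the growing complex together, and eIF4F recruits the mRNA through its cap, with eIF4E binding the cap and eIF4A unwinding RNA. eIF1 and eIF1A govern scanning and the choice of the start codon, eIF5 and eIF5B complete the joining of the large subunit, eEF1 and eEF2 drive elongation, and eIF5A, the protein that carries the modified amino acid hypusine, relieves stalling of the ribosome. In growing cells many of these factors are controlled by MYC at transcription and by the mTOR kinase at translation, which acts through a pyrimidine-rich start of the mRNA.

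The promoters of Eif4e, Eif5a and Eif3b, genes on which the results turn, are shown because each holds the letters CACGTG, the E-box that MYC and several other factors bind, and because the start of Eef1a1 shows the pyrimidine run of translation genes. The sequences are from RefSeq, build GRCr8, and are the gene strand of the 250 bases before the annotated start for Eif4e (chr2:229740503-229740752, plus strand), Eif5a (chr10:55143222-55143471, minus strand) and Eif3b (chr12:19334769-19335018, minus strand), with CACGTG in capitals. For Eef1a1 (chr8:88225055-88225084, minus strand) 30 bases around the start are shown, with the longest run of C or T in capitals.
Eif4e: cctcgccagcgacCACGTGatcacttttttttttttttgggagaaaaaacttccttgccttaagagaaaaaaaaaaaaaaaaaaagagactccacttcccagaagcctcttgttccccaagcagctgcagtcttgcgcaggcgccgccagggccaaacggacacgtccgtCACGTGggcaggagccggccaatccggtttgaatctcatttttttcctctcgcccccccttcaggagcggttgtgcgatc
Eif5a: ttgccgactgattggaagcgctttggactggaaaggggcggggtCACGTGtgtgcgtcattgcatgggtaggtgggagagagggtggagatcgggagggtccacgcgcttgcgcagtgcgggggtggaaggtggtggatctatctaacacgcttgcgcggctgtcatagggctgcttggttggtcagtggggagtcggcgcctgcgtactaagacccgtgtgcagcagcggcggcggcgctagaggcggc
Eif3b: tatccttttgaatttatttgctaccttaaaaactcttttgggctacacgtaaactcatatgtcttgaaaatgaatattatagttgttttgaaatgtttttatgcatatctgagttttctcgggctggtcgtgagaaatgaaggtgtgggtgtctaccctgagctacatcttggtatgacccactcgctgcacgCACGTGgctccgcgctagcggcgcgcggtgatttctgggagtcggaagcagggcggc
Eef1a1: tcgccttggacgTTCTTTTTCgcaacgggt

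Of the 58 genes, 51 had a RefSeq promoter entry. CACGTG, which reads the same on both strands and was searched from 250 bases before to 50 bases after the start, was in 9 of the 51 (17.6%), against 2148 of all 33469 promoters (6.42%). The 9 genes were Eef2, Eif1b, Eif3a, Eif3b, Eif3f, Eif4e, Eif4h, Eif5a and Eif5a2. They did not share 1 direction in the contrast of mitotic and other barcodes described further on. There Eef2 (-0.19), Eif5a2 (-0.19) and Eif3f (-0.25) were lower in log2 fold change by edgeR, and Eif1b was not called. Eif3a (0.41), Eif4h (0.38) and the 3 shown were higher. The Eif4e promoter held it at 237 and 80 bases before the start (positions -237 and -80), Eif5a at -206 and Eif3b at -57. A run of at least 6 C or T letters on the gene strand within 10 bases of the start was in 15 of the 51 (29.4%), against 18.7% of all promoters. The 51 are genes listed in these libraries, counted by symbol, while all promoters are every RefSeq entry, listed in these libraries or not. A background of listed genes alone was not counted, so these shares are of unlike sets. These matches describe letters only. They do not show that any factor bound.

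Of 69624 barcodes in the tables, the 65208 with at least 5000 UMIs (unique molecular identifiers, 1 per captured transcript) were used, and these gave 139656712 to 159685281 UMIs per library. Levels are UMIs of a gene per 1000000 UMIs of the library (CPM), and ratios are log2 ratios of CPM plus 1. The 95% Poisson interval reached at most 2.48% above the value of any translation factor gene of at least 50 CPM, and covers counting error only. A total of 535 barcode sequences (0.774% of the distinct ones) occurred in more than 1 library. The 6 fibroblastic markers (Col1a1, Col1a2, Col3a1, Fn1, Lum and Dcn) summed to 28521 to 48047 CPM over the 8 libraries, while the 4 listed of 6 macrophage and blood markers summed to at most 8.401 CPM and the 2 listed of 3 endothelial markers to at most 1.11 CPM. Of the 4 bone markers, which summed to 21.3 to 60.2 CPM, Bglap was at most 0.204 CPM, and of the 4 cartilage markers (73.2 to 258 CPM) Col2a1 was at 0 in at least 1 library and at most 0.0733 CPM in any. Other bone and cartilage markers were higher. Runx2 was at 14.96 to 21.02 CPM, Alpl at up to 33.9 CPM and Sox9 at 53.6 to 106 CPM. Acan reached 132 CPM and Hapln1 112 CPM. Of the fibroblastic markers, Dcn fell to 2.28 CPM and Lum to 6.09 CPM, both in control at week 12. The fibroblastic sum was thus carried by Col1a1, Col1a2, Col3a1 and Fn1. The label of callus cells therefore stands for cultures rich in transcripts of these 4 genes, and the type of the cells was not tested. The share of barcodes called mitotic, by a cut on UMIs of 19 genes defined below, differed widely. It was 12.96% and 18.5% for magnesium, 12.9% and 41.6% for CGRP, 4.55% and 16.9% for zoledronate, and 32.6% and 26.3% for control, each at weeks 12 and 4. It is not a share of cells in mitosis, as the phase of the cell cycle was not measured. Levels are sums over all barcodes, so a shift in the mix of cells and a shift within cells cannot be told apart in them.

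All translation factor genes together took 17900.7 and 17801 CPM in the magnesium libraries at weeks 12 and 4, 18259 and 19284 CPM in CGRP, 17677 and 19194 CPM in zoledronate, and 17140.0 and 19875 CPM in control. Their summed level thus lay within 1.71% to 1.99% of all UMIs. For the 38 genes with a mean of at least 50 CPM, the ratio of the highest to the lowest library had a median of 1.36 and ran from 1.15 to 2.24. Over all 2408 genes of that level the median was 1.41. Eif5a had the ratio of 2.24, while Eif1b, a close relative of the start codon factor eIF1, had the ratio of 1.15.

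The most abundant gene of each role by CPM is given here by its range over the libraries. Eef1a1, which delivers aminoacyl-tRNA to the ribosome, lay between 3483 CPM (control, week 12) and 5312 CPM (zoledronate, week 4), and Eef2, the translocation factor, between 703 CPM (control, week 12) and 837 CPM (CGRP, week 12). Eif2s2, the beta subunit of eIF2, ranged between 459 CPM (zoledronate, week 12) and 589 CPM (CGRP, week 4), and Eif1 between 1742 CPM (control, week 12) and 2157 CPM (zoledronate, week 12). The zoledronate library at week 12 was the lowest of the 8 for Eif2s2, for the eIF3 subunit gene Eif3c, for the helicase gene Eif4a1 and for Eif5b. Eif5b, which joins the subunits, lay between 155 CPM in that library and 231 CPM in control at week 12. Eef1akmt2, one of 3 methyltransferases of elongation factors caught by the prefix, stayed between 36.1 and 40.9 CPM. Eef1a2, the muscle and neuron form of the elongation factor, was at or below 0.19 CPM in each library.

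**Figure D1:**
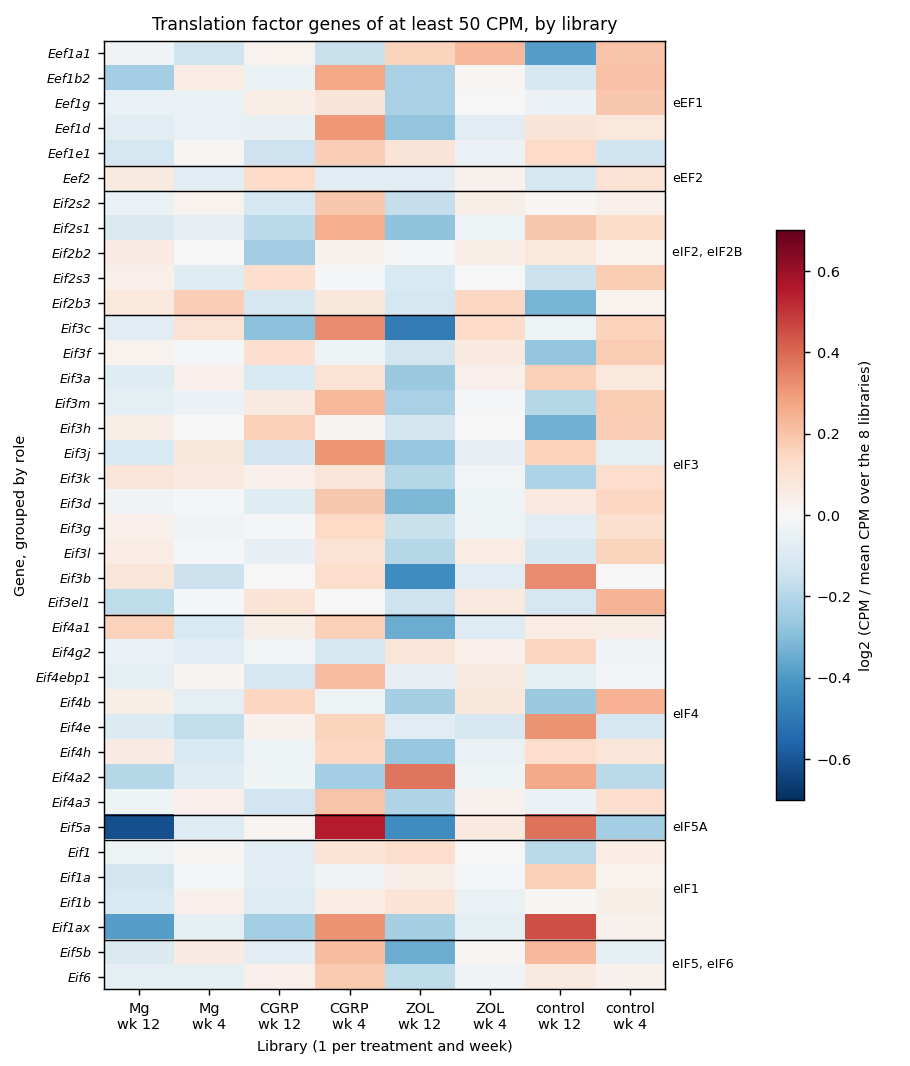
Log2 of the CPM of each translation factor gene over its mean of the 8 libraries, for the 38 genes with a mean of at least 50 CPM, grouped by role; Mg is magnesium, ZOL zoledronate and wk week, and each column is 1 library. Eif5a shows the widest spread, between 197 CPM (magnesium, week 12) and 441 CPM (CGRP, week 4). Many eIF3 genes are lowest in zoledronate at week 12. Of the eIF4 genes, Eif4a1, Eif4h and Eif4a3 are lowest there and Eif4a2 is highest there.

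Eif5a, the gene of the hypusine-carrying factor, was at 197 and 284 CPM in the magnesium libraries at weeks 12 and 4, 304 and 441 CPM in CGRP, 223 and 316 CPM in zoledronate, and 393 and 256 CPM in control. It was high in CGRP at week 4 and in control at week 12 and low in magnesium and zoledronate at week 12. Its paralog Eif5a2, named here after its values were seen, was at 15.4 and 14.996 CPM in magnesium, 15.3 and 12.0 CPM in CGRP, 21.2 and 15.6 CPM in zoledronate, and 17.0 and 12.7 CPM in control. Eif5a2 was lowest in the library where Eif5a was highest, and was highest in zoledronate at week 12, where Eif5a was among the lowest.

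The share of barcodes with at least 1 Eif5a UMI, after thinning each barcode to 5000 UMIs, ran from 61.1% (magnesium, week 12) to 87.1% (CGRP, week 4), and from 94.96% to 99.5% without thinning. Cells that should lack Eif5a were not at hand to give the background of this share, so it is given as a description of detection.

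The 2 eIF4A helicase genes also differed in their order. Eif4a1 was at 1229.6 and 1020.0 CPM in magnesium at weeks 12 and 4, 1132 and 1235 CPM in CGRP, 865 and 1033 CPM in zoledronate, and 1139.8 and 1135 CPM in control. Eif4a2 was at 94.1 and 102 CPM in magnesium, 106 and 91.7 CPM in CGRP, 139.98 and 106 CPM in zoledronate, and 129.7 and 94.9 CPM in control. The zoledronate library at week 12 had the lowest Eif4a1 and the highest Eif4a2, and the CGRP library at week 4 had the highest Eif4a1 and the lowest Eif4a2.

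**Figure D2:**
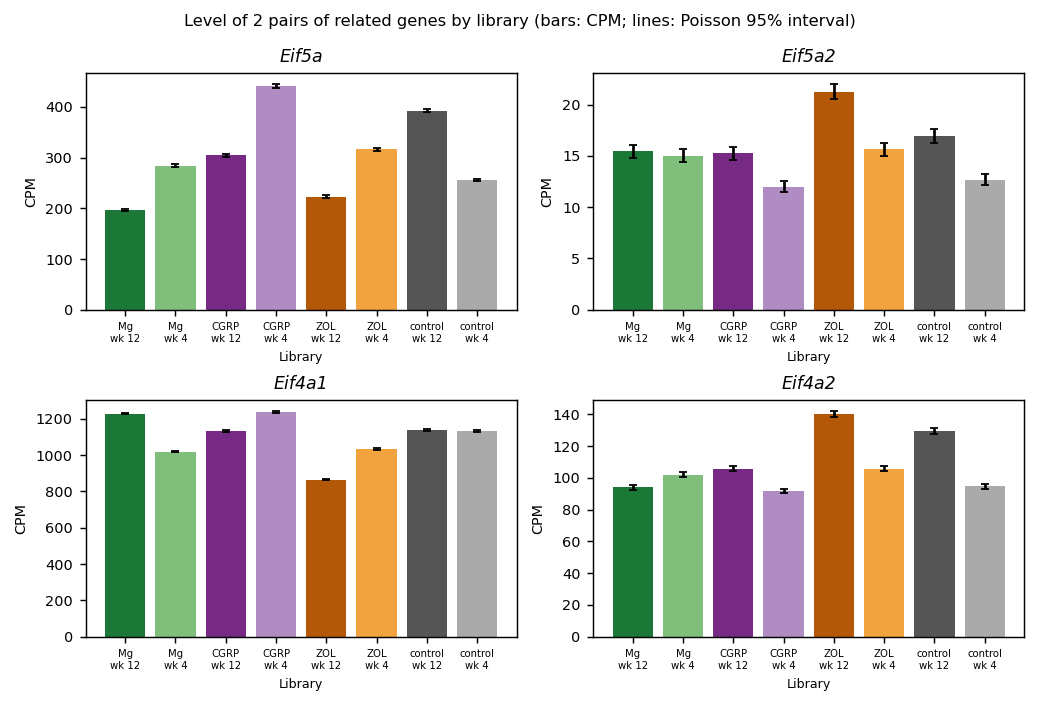
CPM of the paralogs Eif5a and Eif5a2 and of Eif4a1 and Eif4a2 in each of the 8 libraries (bars) with the exact Poisson 95% interval (lines), which covers counting error only; Mg is magnesium, ZOL zoledronate and wk week. CGRP at week 4 has the highest Eif5a (441 CPM) and the lowest Eif5a2 (12.0 CPM), and zoledronate at week 12 has the lowest Eif4a1 (865 CPM) and the highest Eif4a2 (139.98 CPM).

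Zoledronate was set against control, which asks how callus cells of bisphosphonate-treated rats differ. At week 4 these libraries were close. Of 53 translation factor genes with a mean of at least 10 CPM over both libraries, 0 were higher by at least 0.32 on the log2 scale (4.34% of all 5920 genes of that level were) and 0 were lower by at least 0.32 (4.48%). The same threshold of 0.32 is used for each pair of libraries below. The median log2 ratio was -0.07, against -0.01 over all genes. The highest was Eif5a at 0.31, with 316 CPM in zoledronate and 256 CPM in control. The lowest among those of at least 50 CPM was Eef1b2, a subunit of the exchange factor that recharges eEF1A, at -0.19. Eif5a differed by 0.25 when mitotic barcodes were left out.

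At week 12, 15 of 52 translation factor genes were lower past the threshold in zoledronate than in control, against 28.7% of all 5908 genes, and 2 were higher past the threshold, against 12.3%. With plain CPM the count of lower genes is close to its background and the count of higher genes is under it. Their median log2 ratio was -0.08, against -0.12 over all genes, and turned positive with other scalings. With TMM factors the median over all genes moved to -0.01 and that of the translation factor genes to 0.03. The split became 4 higher, against 18.3% of all genes, and 7 lower, against 20.1%. With DESeq2 size factors the median was 0.05, with 6 higher, against 19.6% of all genes, and 6 lower, against 18.75%. With both scalings the counts lay under these shares. The genes at least 1.5-fold lower, as 11.8% of all genes were, were Eif5a, the eIF3 subunit gene Eif3b, the eIF4E-binding repressor gene Eif4ebp2 and the scanning factor gene Eif1ax.

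Eif5a had 223 CPM in zoledronate, against 393 CPM in control, a log2 ratio of -0.81 with a counting interval of -0.84 to -0.80. Eif3b had 72.0 CPM in zoledronate, against 123 CPM in control, a log2 ratio of -0.76. Eif1ax had 44.5 CPM in zoledronate, against 71.5 CPM in control, a log2 ratio of -0.67. With non-mitotic barcodes only, the ratios of Eif5a, Eif3b and Eif1ax were -0.69, -0.50 and -0.53. That of Eif1ax was -0.56 with TMM factors and -0.54 with DESeq2 size factors. Against these, Eef1a1 was higher by 0.54 on the log2 scale, with 5059 CPM in the zoledronate library and 3483 CPM in the control library. The other gene higher past the threshold was Eef1akmt1, a methyltransferase of eEF1A, at 0.52. The eIF3 group held 5 of the 15 lower genes (Eif3b, Eif3c, Eif3a, Eif3j and Eif3d) and the eIF4 group 4 (Eif4ebp2, Eif4a1, Eif4h and Eif4e). Mitotic barcodes were 4.55% of the zoledronate library and 32.6% of the control library. With non-mitotic barcodes only, 5 translation factor genes were lower past the threshold, against 17.0% of all genes, and 3 higher, against 11.5%. The fibroblastic marker Dcn had 355 CPM in zoledronate, against 2.28 CPM in control, and the fibroblastic list summed to 48047 CPM in zoledronate and 29272 CPM in control. Its part in the ratios was not tested.

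CGRP with zoledronate was set against zoledronate alone, which asks what the neuropeptide adds. At week 4, 4 of 53 translation factor genes were higher past the threshold in CGRP, against 12.2% of all genes, and 3 were lower, against 13%. The median log2 ratio was 0.10, against 0.01 over all genes. The higher genes were Eif5a at 0.48, Eef1d, another subunit of the eEF1 exchange factor, at 0.38, Eif1ax at 0.38 and Eif3j, the loosely bound eIF3 subunit, at 0.36. The lower ones were Eef1a1 at -0.38, Eif5a2 at -0.36 and the scaffold gene Eif4g3 at -0.33. Eif5a was at 441 CPM in CGRP and 316 CPM in zoledronate, and Eef1a1 was at 4074 CPM in CGRP and 5312 CPM in zoledronate. Mitotic barcodes were 41.6% of the CGRP library and 16.9% of the zoledronate library. With non-mitotic barcodes only, Eif5a was at 0.43 and Eef1a1 at -0.33. In these barcodes 2 translation factor genes were higher past the threshold, against 6.84% of all genes, and 3 lower, against 13.2%. The fibroblastic list summed to 28521 CPM in CGRP and 47088 CPM in zoledronate, with Dcn at 9.31 and 134 CPM and Lum at 21.7 and 168 CPM in CGRP and zoledronate. Its part in the ratios was not tested.

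At week 12, 5 of 53 translation factor genes were higher past the threshold in CGRP than in zoledronate, against 12.4% of all genes, and 2 were lower, against 13%. Across the group the median log2 ratio was 0.13, against 0.00 over all genes. A ratio above 0 was seen for 37 of 53 genes, against 2929 of all 5784 genes, a description of these libraries with no test. Scaling to totals without ribosomal protein genes gave 9 of 54 higher, against 17.55% of all genes, and 2 lower, against 10.1%. The count of higher genes is close to that share. The higher genes were Eif5a at 0.45 (304 CPM in CGRP and 223 CPM in zoledronate), Eif3b at 0.43 (97.4 CPM in CGRP and 72.0 CPM in zoledronate), Eif4a1 at 0.39, the helicase cofactor gene Eif4b at 0.38 and Eif4ebp2 at 0.35. The lower ones were Eif5a2 at -0.45 and Eif4a2 at -0.40. Cytosolic ribosomal proteins had a median of 0.23, with 23 of 82 higher past the threshold. In both weeks Eif5a was higher in CGRP than in zoledronate and Eif5a2 lower, with the difference between weeks not tested.

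Magnesium with zoledronate was set against zoledronate alone, the comparison that the series title points to. At week 4, 0 of 53 translation factor genes were higher past the threshold in magnesium, against 1.56% of all genes, and 1 was lower, against 1.61%. The median log2 ratio was -0.03, against -0.01 over all genes. Eef1a1 was that gene, at 4131 CPM in magnesium and 5312 CPM in zoledronate, a log2 ratio of -0.36. The highest was Eif3j at 0.13, with 209 CPM in magnesium and 190.1 CPM in zoledronate.

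At week 12, 5 of 53 translation factor genes were higher past the threshold in magnesium than in zoledronate, against 17.8% of all genes, and 2 were lower, against 9.77%. Over both libraries the median log2 ratio was 0.15, against 0.06 over all genes, and 0.09 against 0.01 with TMM factors. The higher genes were Eif4e3, an eIF4E relative, at 0.58, Eif3b and Eif4a1 at 0.51, Eif3c at 0.41 and the helicase cofactor gene Eif4h at 0.32, and the lower ones were Eif4a2 at -0.57 and Eif5a2 at -0.44. Eif3b was at 103 CPM in magnesium and 72.0 CPM in zoledronate, and Eif4a1 was at 1229.6 CPM in magnesium and 865 CPM in zoledronate. Eif4a2 was at 94.1 CPM in magnesium and 139.98 CPM in zoledronate. With non-mitotic barcodes only, Eif3b was at 0.46 and Eif4a2 at -0.56. Eif5a was at -0.18, with 197 CPM in magnesium and 223 CPM in zoledronate.

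**Figure D3:**
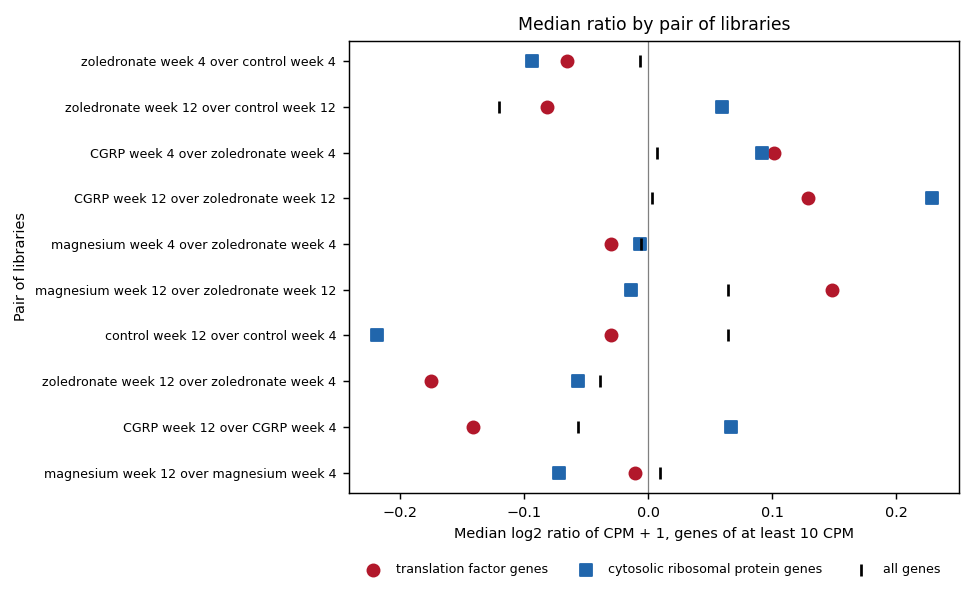
Median log2 ratio of CPM plus 1 for the translation factor genes (circles), the cytosolic ribosomal protein genes (squares) and all genes (bars) of at least 10 CPM in each of the 10 pairs of libraries. For magnesium over zoledronate at week 12 the translation factor genes had a median of 0.15 and the ribosomal protein genes -0.01, and for zoledronate over control at week 12 they had -0.08, which became 0.03 with TMM factors, and 0.06.

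Week 12 was set against week 4 within each treatment. The pairs share libraries with the treatment comparisons and are no independent evidence. Eif5a was higher at week 12 in control, at 0.62 on the log2 scale (393 CPM at week 12 and 256 CPM at week 4), and lower at week 12 in magnesium (-0.52), CGRP (-0.53) and zoledronate (-0.50). In the zoledronate-treated libraries its level was 197, 304 and 223 CPM at week 12, and 284, 441 and 316 CPM at week 4, for magnesium, CGRP and zoledronate. The week 12 value of control lay outside the 3 week 12 values of the zoledronate-treated libraries.

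In control, 7 of 53 translation factor genes were higher past the threshold at week 12, against 20.2% of all genes, and 10 were lower, against 10.5%. The median log2 ratio was -0.03, against 0.06 over all genes. TMM or DESeq2 factors gave 5 higher and 12 lower. Of all genes, 15.8% were higher and 13.7% lower with TMM factors, and 15.95% and 13.6% with DESeq2 factors. Eef1a1 was the lowest at -0.58, with 3483 CPM at week 12 and 5219.9 CPM at week 4. The lower genes included 5 of 13 eIF3 genes (Eif3h, Eif3f, Eif3m, Eif3k and Eif3el1), whereas Eif3b was higher at 0.33. The higher genes included the cap-binding Eif4e at 0.43 (149 CPM at week 12 and 109.9 CPM at week 4), Eif4a2 at 0.45 and Eif1ax at 0.42. Cytosolic ribosomal proteins had a median of -0.22. The fibroblastic list summed to 29272 CPM at week 12 and 47270.0 CPM at week 4, with Dcn at 2.28 and 148 CPM and Lum at 6.09 and 192 CPM at weeks 12 and 4, and its part in these ratios was not tested.

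In zoledronate, 4 of 54 translation factor genes were higher past the threshold at week 12, against 8.73% of all genes, and 5 were lower, against 13.7%. Among these genes the median log2 ratio was -0.18, against -0.04 over all genes. Of the 54 genes 40 lay below 0, against 3339 of all 5845 genes. TMM or DESeq2 factors gave 5 higher and 3 lower. Of all genes, 11.2% were higher and 11.0% lower with TMM factors, and 12.1% and 10.25% with DESeq2 factors. Eif4a2 was the highest of at least 50 CPM at 0.40, with 139.98 CPM at week 12 and 106 CPM at week 4. Eif3c, a scaffold subunit of eIF3, was the lowest at -0.62, with 272 CPM at week 12 and 419.9 CPM at week 4.

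In CGRP, 1 of 53 translation factor genes was higher past the threshold at week 12 (Eif5a2, 0.32), against 13.5% of all genes, and 9 were lower, against 20.2%. Across the group the median log2 ratio was -0.14, against -0.06 over all genes. With TMM factors 2 were higher and 5 lower, against 15.3% and 17.6% of all genes. With DESeq2 factors the counts were 2 and 7, against 14.99% and 18.04%. Eif3c was the lowest at -0.62, with 313 CPM at week 12 and 480.4 CPM at week 4, and Eif1ax was at -0.54, with 44.4 CPM at week 12 and 65.0 CPM at week 4. Eef2 was the highest of at least 50 CPM at 0.21. Mitotic barcodes were 12.9% at week 12 and 41.6% at week 4. With non-mitotic barcodes only the median was -0.07.

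In magnesium, 1 of 54 translation factor genes was higher past the threshold at week 12, against 12.4% of all genes, and 1 was lower, against 10%. The translation factor median was -0.01, against 0.01 over all genes. The higher gene was Eif4e3, at 0.91, with 19.7 CPM at week 12 and 9.97 CPM at week 4, and the lower gene was Eif5a. Among genes of at least 50 CPM, Eif4a1 was the highest at 0.27. TMM factors and totals without ribosomal protein genes gave 1 higher and 2 lower. Of all genes, 11.8% were higher and 10.46% lower with TMM factors, and 11.01% and 11.76% with totals without ribosomal protein genes.

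The mitotic barcodes were compared with the other barcodes because the 8 libraries differ in their share of barcodes called mitotic. This comparison also has 8 libraries in which to measure its spread. Each barcode was thinned to 5000 UMIs. Barcodes with at least 5 UMIs of the 19 listed of 20 mitotic genes (Mki67, Top2a, Ccnb1 and others, with no translation factor among them) were called mitotic (13109), those with 0 or 1 UMI were called other (47168), and those with 2 to 4 were left out (4931). The cut divides a range and not cell types, and 1922 barcodes had 4 or 5 such UMIs. Mitotic names the barcodes past this cut, and non-mitotic those called other, which can still hold dividing cells. UMIs were summed per library and class and tested with edgeR's quasi-likelihood test with the library as a block and Benjamini-Hochberg adjustment over 11103 genes. Each library is 1 replicate, so the spread is between libraries of differing treatment and week.

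Between these classes the translation factor genes moved in both directions. Of 58, 29 were higher in mitotic barcodes at an adjusted p under 0.05 by edgeR, against 34.0% of all genes tested, 19 were lower, against 36.9%, and 10 were not called. Their median log2 fold change was 0.08, against -0.02 over all genes. With library totals in place of TMM factors, a setting chosen after the data were seen, 37 were higher and 11 lower. Of all 11103 genes, 4822 were higher and 3049 lower with this setting. The median over all genes moved to 0.08 and that of the translation factor genes to 0.18. Mitotic barcodes were deeper in each library, with median UMI counts of 16889 to 24477 against 12105 to 19737 in other barcodes. With both classes thinned to 5000 UMIs 28 of 57 were higher and 16 lower, against 3203 and 3363 of all 10145 genes.

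Eif4e, whose protein binds the mRNA cap, had the largest fold change among the called genes. It was at 154, 152, 176, 170.4, 172, 161, 183 and 149.5 TMM-scaled CPM in mitotic barcodes of magnesium weeks 12 and 4, CGRP weeks 12 and 4, zoledronate weeks 12 and 4 and control weeks 12 and 4. In other barcodes of these libraries it was at 103, 93.6, 117, 106, 115, 97.9, 119 and 93.6 TMM-scaled CPM. The lowest mitotic value lay above the highest other value. The mean was 165 ± 12.3 in mitotic barcodes and 106 ± 10.2 in other barcodes (SD, n = 8 libraries each), with a log2 fold change of 0.65 (SE 0.02, edgeR adjusted p = 1.42e-10), and higher in 8 of 8 libraries. Its relatives went the other way: Eif4e3 had a log2 fold change of -0.44 (edgeR adjusted p = 1.13e-06, lower in 8 of 8 libraries), and Eif4e2 one of -0.10, which became 0.01 with library totals. The repressor gene Eif4ebp2, whose protein holds eIF4E inactive, was at 0.64 (edgeR adjusted p = 1.76e-08, higher in 8 of 8 libraries). Of the related repressor genes, the far more abundant Eif4ebp1 was at 0.09 (higher in 6 of 8 libraries) and Eif4ebp3 at 0.37. Levels in mitotic and other barcodes were 8.85 and 12.0 CPM for Eif4e3 and 24.1 and 15.4 CPM for Eif4ebp2. They were 508 and 474 CPM for Eif4ebp1 and 9.38 and 7.26 CPM for Eif4ebp3.

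Among the eIF3 genes, 7 of 13 were higher in mitotic barcodes, against 34.0% of all genes tested, and 4 were lower, against 36.9%. Eif3b was at 121 ± 12.8 CPM in mitotic barcodes and 89.7 ± 8.81 CPM in other barcodes (SD, n = 8 libraries each), a log2 fold change of 0.42 (edgeR adjusted p = 1.06e-07, higher in 8 of 8 libraries). Eif3a and Eif3c, the large scaffold subunits, were at 0.41 and 0.35, Eif3d, which can bind the cap of some mRNAs in human cells, at 0.39 and Eif3j at 0.29. The lower genes were Eif3f and Eif3h, the subunits with an MPN domain, at -0.25 and -0.28, with Eif3k at -0.20 and Eif3m at -0.07. Eif3m became 0.03 with library totals. The genes of this complex were thus called in both directions, as were all genes tested. Each of the genes named here other than Eif3m had the same direction in 8 of 8 libraries.

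The genes with Eif2 and Eif4 symbols were called in both directions, where 34.0% of all genes tested were higher and 36.9% lower. Of 10 genes with Eif2 symbols 7 were higher and 2 lower. These counts include Eif2a (0.24) and Eif2d (-0.09), which are not subunits of eIF2 or of its exchange factor. Eif2s1, the subunit that stress kinases phosphorylate, was at 196 ± 10.7 CPM in mitotic barcodes and 139.9 ± 11.1 CPM in other barcodes (SD, n = 8 libraries each), a log2 fold change of 0.49 (edgeR adjusted p = 1.50e-09). Eif2b3, a subunit of the exchange factor of eIF2, was at -0.34 (edgeR adjusted p = 8.62e-07). Of 14 eIF4 genes 8 were higher and 6 lower, and Eif4a3, the helicase of the exon junction complex, was at 0.42 (edgeR adjusted p = 1.09e-08, higher in 8 of 8 libraries). Eif4a1 was at 0.37, with 1321 CPM in mitotic barcodes and 1026 CPM in other barcodes, whereas Eif4a2 was at -0.18, with 100.5 CPM in mitotic barcodes and 114 CPM in other barcodes. These counts of lower genes depend on the scaling: with library totals in place of TMM factors Eif4e2 (0.01), Eif4g2 (0.05) and Eif2d (0.01) turned positive, and Eif4b and Eif4g3 were no longer called.

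Eif5a was at 345 ± 85.5 CPM in mitotic barcodes and 289.7 ± 70.6 CPM in other barcodes (SD, n = 8 libraries each), a log2 fold change of 0.25 (edgeR adjusted p = 2.48e-05, higher in 8 of 8 libraries), while Eif5a2 was at -0.19 (edgeR adjusted p = 3.35e-04, lower in 8 of 8 libraries). Without the library block the edgeR adjusted p of Eif5a was 0.233, and its SD between libraries was larger than the difference between the class means. In other barcodes alone Eif5a was at 191 and 274 CPM in magnesium at weeks 12 and 4, 299.7 and 414 CPM in CGRP, 229 and 299.7 CPM in zoledronate, and 355 and 255 CPM in control. The order of the libraries seen over all barcodes was thus largely present in the barcodes called other.

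**Figure D4:**
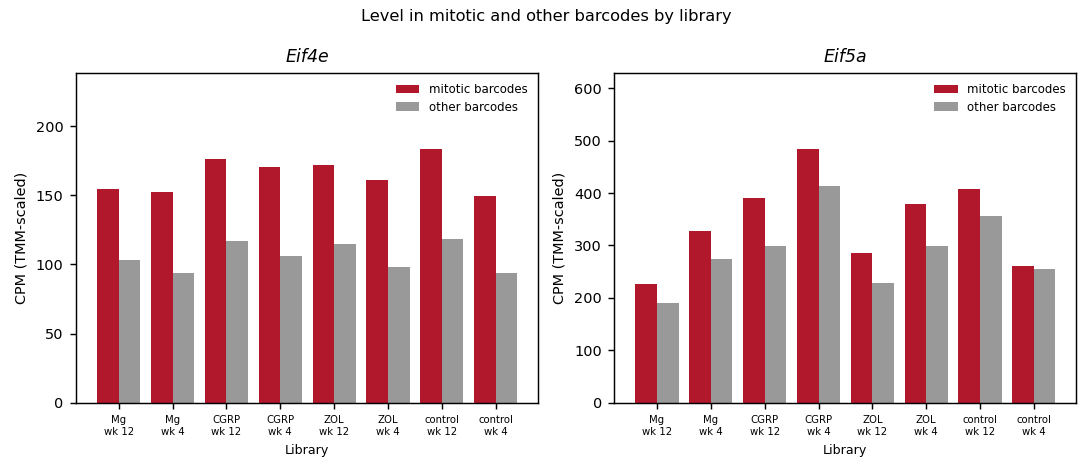
TMM-scaled CPM of Eif4e and Eif5a in mitotic barcodes (red) and other barcodes (grey) of each of the 8 libraries; Mg is magnesium, ZOL zoledronate and wk week. Eif4e is higher in mitotic barcodes by a like amount in each library, whereas the libraries differ in Eif5a within both classes, from 191 CPM (magnesium, week 12) to 414 CPM (CGRP, week 4) in other barcodes.

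The elongation genes were lower or mixed. Eef1a1 was at 4023 ± 578 CPM in mitotic barcodes and 4869 ± 695 CPM in other barcodes (SD, n = 8 libraries each), a log2 fold change of -0.28 (edgeR adjusted p = 7.28e-07, lower in 8 of 8 libraries). Eef2 was at 701 CPM in mitotic barcodes and 803 CPM in other barcodes, a log2 fold change of -0.19 (edgeR adjusted p = 1.80e-04). Eef1d and Eef1e1, a scaffold protein of the tRNA synthetase complex, were each higher at 0.25. The methyltransferase genes Eef1akmt1 and Eef2kmt were at -0.33 and -0.31, and Eef2kmt was no longer called with library totals. Cytosolic ribosomal proteins, the other large group of translation genes, were lower for 73 of 82, against 36.9% of all genes tested. They were higher for 3, against 34.0%, with a median of -0.23. Beside this, the TMM factors shifted mitotic against other sums by -0.07 to -0.14 on the log2 scale.

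**Figure D5:**
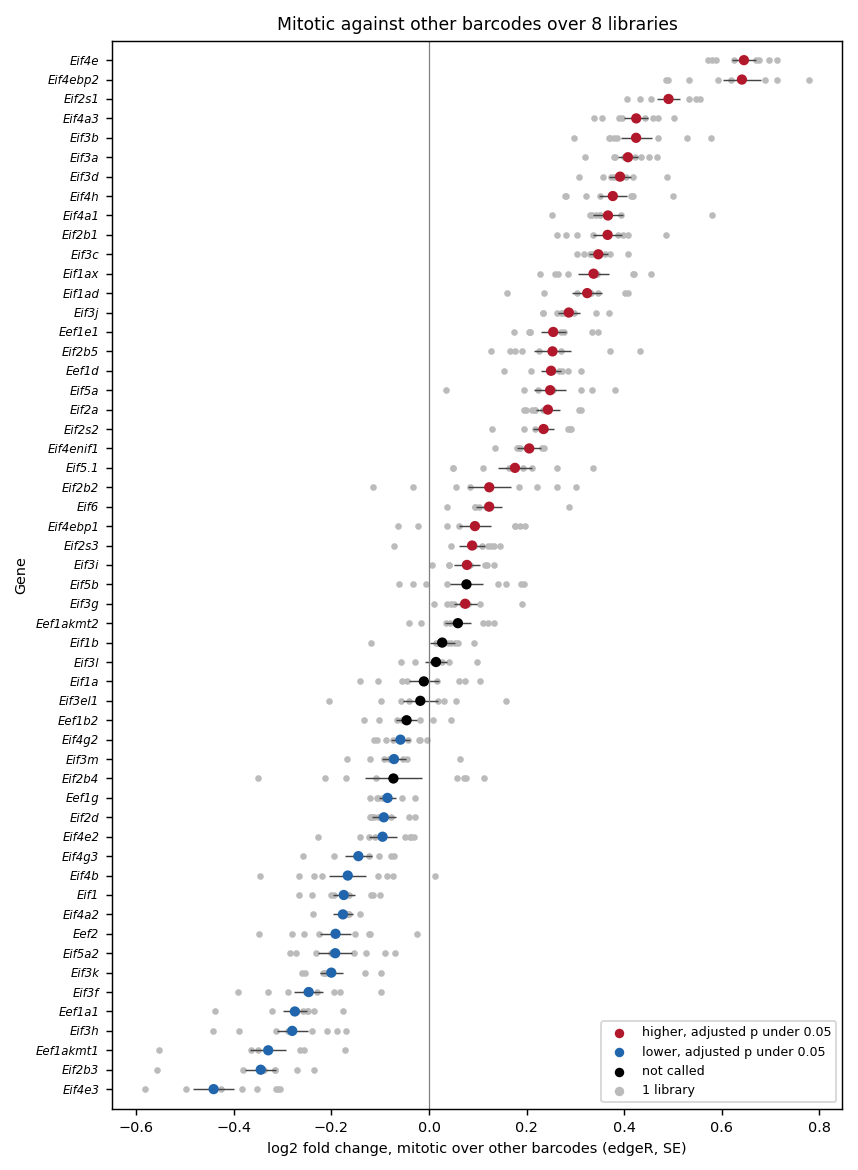
Log2 fold change of mitotic over other barcodes from edgeR with its SE (large points and lines) and in each of the 8 libraries (small grey points), for the 54 translation factor genes of at least 10 CPM; red is higher and blue lower at an adjusted p under 0.05. Eif4e (0.65) and Eif4ebp2 (0.64) stand at the top and Eif4e3 (-0.44) at the bottom.

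Other genes of the pathway were taken from fixed lists and are given by counts past the same threshold of 0.32 over genes of at least 10 CPM. For zoledronate over control at week 12, the termination and recycling list had 3 of 5 lower, against 28.7% of all genes, and 0 higher, with a median of -0.38 against -0.12 over all genes, and Etf1, the release factor, the lowest at -0.63. The list of eIF2 kinases and stress response genes had 5 of 9 higher, against 12.3% of all genes, and 0 lower, with a median of 0.44 and Trib3, an ATF4 target, the highest at 0.99. Atf4, the transcription factor whose mRNA is translated when eIF2 is phosphorylated, had 647 CPM in zoledronate, against 475 CPM in control. Against zoledronate at week 12 this list had 2 of 9 lower in magnesium (median -0.12), against 9.77% of all genes, and 2 of 9 lower in CGRP (median -0.18), against 13%, with Chac1, another ATF4 target, the lowest in both at -0.95 and -0.68. At week 4, 3 of 10 were higher in magnesium than in zoledronate, against 1.56% of all genes, and 0 lower, with a median of 0.03 and Ppp1r15a, the phosphatase subunit that restores eIF2, the highest at 0.41. Trib3 was also the lowest for control at week 12 over week 4, at -1.21, so the control library at week 12 enters both of these differences.

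Of the mTOR and eIF4E control list, 2 of 7 were lower in zoledronate than in control at week 12, close to the 28.7% of all genes, and 0 higher, with Mknk2, a kinase of eIF4E, the lowest at -0.55 and the mTOR activator gene Rheb the highest at 0.11. Among poly(A) and helicase partners, Pabpc1, the poly(A)-binding protein, was lower at week 12 in control (-0.81), zoledronate (-0.57) and magnesium (-0.40). Ddx3x, a helicase, was lower in CGRP than in zoledronate at week 4 (-0.67). Of the enzymes that make hypusine or diphthamide, 0 of 5 were past the threshold in the 4 comparisons of CGRP or magnesium with zoledronate. For CGRP at week 12 over week 4, 3 of 5 were lower, against 20.2% of all genes, with a median of -0.39 and Dohh, which completes hypusine, the lowest at -0.47. For zoledronate over control at week 12 Dph3 was lower (-0.43). Between weeks 12 and 4, Dph3 was higher (0.41) and Dph5 lower (-0.49) in control, and Dph5 was lower in magnesium (-0.42). Of the mitochondrial factors 2 reached 10 CPM, and Tufm, the mitochondrial elongation factor, was at -0.56 for zoledronate over control at week 12. Myc was the 1 gene of its list at 10 CPM. At week 4 it was higher than in zoledronate in magnesium (0.38) and, just under the threshold, in CGRP (0.319). At week 12 it was lower than in zoledronate in both magnesium (-0.48) and CGRP (-0.35). Between weeks 12 and 4 it was higher at week 12 in zoledronate (0.34) and lower in CGRP (-0.33) and magnesium (-0.53). Among ribosomal proteins, Rps4y2 and Rpl39l lay furthest from 0, at 3.09 and -1.27 for magnesium over zoledronate at week 12.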

How the data were processed

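Callus cells of 4 treatments at 2 times were sequenced with 1 library each, on the 10x Chromium V3 platform. The authors deposited whole-number counts of UMIs per gene and barcode for each library. STAR and Rnor_6.0 are named per the submitters' processing notes, without their settings, and the counting of strand, near-identical copies and pseudogenes is stated by no source at hand. Values of genes with such copies, among them Eef1a1, Eif4a1, Eif1a and Eif1ax, and Eif3el1, are therefore uncertain. Eif5 and Eif5.1 are the same symbol on 2 rows, as the tables give them. A gene not listed in a library was taken as 0. 0 columns of samples were left unused.

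Genes and lists were chosen with earlier results of these data known. Barcodes of at least 5000 UMIs were summed per library (4416 of 69624 were left out), scaled to CPM, and compared as log2 ratios of CPM plus 1 for genes with a mean of at least 10 CPM over both libraries. Genes were named when they were the most abundant of their role, at least 1.5-fold apart, the highest or lowest in a comparison (mean of at least 50 CPM), or among the 5 largest called changes in either direction between mitotic and other barcodes. Other genes behind a short count were named after their values were seen. Doublets were not called. Poisson and Clopper-Pearson 95% intervals cover counting error only.

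The mitotic contrast used edgeR 4.0.16 (TMM, filterByExpr) with DESeq2 1.42.0 as an alternative, in R 4.3.3. Standard errors are the absolute log2 fold change over the square root of F. Tested on simulated data of 10657 genes, this step recovered 61 of 100 genes changed 1.2-fold and 88 of 100 changed 1.5-fold, with 9 false calls among 10457 unchanged genes. Promoters were searched in RefSeq sequences of GRCr8, matched by symbol. Ratios between libraries were recomputed under 10 other settings and the mitotic contrast under 7 others and with each library left out.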

Additional observations from a re-analysis of the deposited data

Results flagged for a closer look

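Eif5a was higher at week 12 than at week 4 in control (log2 ratio 0.62) and lower at week 12 in zoledronate (-0.50), CGRP (-0.53) and magnesium (-0.52), so the libraries moved in opposite directions. Eif3b was higher at week 12 in control (0.33) and lower in zoledronate (-0.35), and was at 0.23 in magnesium and -0.12 in CGRP, under the 0.32 threshold. Eif1ax was higher at week 12 in control (0.42) and lower in CGRP (-0.54), and was at -0.32 in magnesium and -0.16 in zoledronate. Each direction rests on 1 library per time, and the differences between treatments were not tested. Mitotic barcodes were more frequent at week 12 than at week 4 in control (32.6% and 26.3%) and less frequent in zoledronate (4.55% and 16.9%), CGRP (12.9% and 41.6%) and magnesium (12.96% and 18.5%). In other barcodes alone, Eif5a at weeks 12 and 4 was at 191 and 274 TMM-scaled CPM in magnesium, 299.7 and 414 in CGRP, 229 and 299.7 in zoledronate, and 355 and 255 in control.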

How the results depend on the processing

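No paired analysis was possible because the labels carry no replicate numbers that link libraries of different treatments. The mitotic contrast was paired within each library by its block, and an additive fit of treatment and week over the 8 libraries was not run. Of 100 recomputed medians 93 and of 100 recomputed counts 90 stayed near their value. For zoledronate over control at week 12 the median of the translation factor genes was 0.0307 with TMM factors, 0.0515 with DESeq2 size factors and 0.00323 with non-mitotic barcodes, and the count past the 0.32 log2 threshold was 11 with TMM factors and 8 with non-mitotic barcodes, against 17. With only genes of at least 100 CPM, which leaves fewer genes, the counts were 4 for CGRP over zoledronate at week 4, 4 at week 12, 4 for magnesium over zoledronate at week 12, and for week 12 over week 4 they were 11 in control, 4 in zoledronate, 6 in CGRP and 1 in magnesium. Totals without ribosomal protein genes gave a count of 11 for CGRP over zoledronate at week 12, where 17.55% of all genes were higher and 10.1% lower. They gave a median of -0.0419 for magnesium at week 12 over week 4. The median for zoledronate at week 12 over week 4 was -0.125 with TMM factors and -0.108 with DESeq2 size factors, and for CGRP -0.0661 with non-mitotic barcodes. The shares of all genes past the threshold moved with the setting as well. For zoledronate over control at week 12 they were 18.3% higher and 20.1% lower with TMM factors, against 12.3% and 28.7%. The cause of these moves was not tested. In the mitotic contrast, leaving out each library gave 25 to 30 higher and 18 to 20 lower genes. Of all genes, 3490 to 3749 were then higher and 3908 to 4129 lower. Without the library block 21 were higher and 9 lower, against 2695 and 2322 of all 10478 genes. With library totals in place of TMM factors, a setting chosen after seeing the data, 11 were lower, against 3049 of all 11103 genes. Eef1g (0.0218), Eif2d (0.0127), Eif3m (0.0349), Eif4e2 (0.0107) and Eif4g2 (0.0483) then turned positive. DESeq2 gave 24 higher and 20 lower, against 3354 and 4111 of all 12282 genes. Depth limits the genes below 10 CPM, and 1 library per treatment and week limits each comparison of treatments.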
